A study of Mus musculus with 20 samples.

Results

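The genes described here are 41 genes of DNA replication, taken by symbol from a named list: the factors that license replication origins, the MCM helicase, the factors that activate it, the enzymes of the replication fork, nucleotide supply, chromatin factors that act at the fork, and 3 regulators of S phase entry. All 41 symbols were on the panel, with 90 of its 30146 probes, and were 41 of its 21450 symbols. Counts were high enough to test 56 probes of 33 members, out of 14122 tested probes of 10101 genes. The other 8 members (Mcm4, Mcm5, Cdc6, Orc1, Gins3, Chaf1a, Chaf1b and E2f1) had too few counts and are given as counts only.

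Each value is from the liver of 1 male Balb-C mouse of 10 to 12 weeks of age. Mice were given Nafion byproduct 2 (PFESA-BP2), a perfluorinated ether sulfonic acid, by gavage once a day for 7 days. There were 4 mice in each of 5 groups: control, 0.03, 0.3, 3 and 6 mg/kg per day. The protocol names deionized water for the controls while their titles carry the word DMSO, so the vehicle is not settled here. Liver RNA was measured with TempO-Seq, a targeted assay which joins neighbouring oligonucleotides on an RNA and counts the joined products by sequencing.

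Replication is prepared when the origin recognition complex, Cdc6 and Cdt1 load the ring-shaped MCM helicase onto DNA, and it starts when Cdc45 and the GINS complex turn that helicase on and polymerases follow the fork. E2F transcription factors switch on many of these genes as a cell passes into S phase. Most hepatocytes of an adult liver are out of the cell cycle, carry a polyploid genome, and can enter S phase again after loss of liver tissue or after some chemicals.

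The 20 libraries held 6823518 to 10310931 counts each, and a floor of 3 counts was worth 0.251 to 0.511 CPM (counts per 1000000, on scaled library sizes). Such a floor allows for counting error alone. Copies made by amplification are not separate molecules, so the counts of single probes can vary by more than that. In dose_3 replicate 4, 857 of the tested probes (6.07%) lay over 4 times lower than in every other library, against 3 to 66 probes in each of the other 19 libraries, and dose_6 replicate 4 had the 66. The mean rank correlation with the other livers of its group was 0.860 for dose_3 replicate 4 and 0.935 for dose_6 replicate 4, where the next lowest library had 0.9365. Control and 0.03 mg/kg libraries came from row A of the plate and 3 and 6 mg/kg libraries from row B, as the titles give it, and 1 of the 4 libraries at 0.3 mg/kg was in row B. Hepatocyte markers such as Alb and Apoa1 were present in every group. The 9 markers summed to 17352 to 21417 CPM at 6 mg/kg and 26241 to 32090 CPM in control livers.

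At 6 mg/kg, 18 of the 33 tested replication genes rose against control (adjusted p under 0.05 over all tested probes) and 0 fell. By role these were 2 of 2 S phase regulators, 2 of 4 licensing factors, 4 of 4 MCM subunits, 2 of 5 helicase activators, 4 of 11 fork enzymes, 2 of 5 genes of nucleotide supply and 2 of 2 chromatin factors. Over all 10101 tested genes the same test called 10.9% higher and 9.63% lower. The median of the 33 log2 fold changes was 1.09, with a range of -0.87 to 3.62 and 30 positive, beside a median of -0.02 over all tested genes. In 17 of the 33 members every liver at 6 mg/kg lay above every control liver, which was so for 12.2% of all tested genes, and in 0 members it lay below, beside 14.7% of all tested genes. A gene is represented by its tested probe with the most counts over all 20 libraries, and the same rule was used for all tested genes. The dosed livers are part of that choice, so it can favour a probe that rose. All control livers were in plate row A and all 6 mg/kg livers in row B, and with plate row as a term 2 of the 18 (Mcm6 and Rrm2) stayed past the threshold. That fit called 1.60% of all tested genes higher. In whole liver, a change in the share of cells in S phase and a change in RNA per cell cannot be told apart.

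At 3 mg/kg, 8 of the 33 rose against the same control livers and 0 fell, where 1.13% of all tested genes were called higher and 0.406% lower. The median log2 fold change was 0.50, and 9 members lay above all control livers without overlap (3.44% of all tested genes), with 0 below (4.58%). The count of 8 was 5 with limma-voom, 2 in a fit of the 8 libraries of this comparison alone, and 0 with plate row as a term. It was 4 without control replicate 1, 2 or 3, and 5 without dose_3 replicate 3. The share of all tested genes called higher fell too in these fits. In the order given it was 0.842%, 0.336% (of 9235 genes), 0.00990%, 0.782% to 0.881%, and 0.812%. Ccne2, Hells, Mcm6 and Rrm2 were called in each of the fits without a control liver that gave 4.

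At 0.03 and at 0.3 mg/kg 0 members passed in edgeR, DESeq2 or limma-voom, as did 0 of all tested genes in edgeR (background 0% at both doses). Without adjustment 1 member at 0.03 mg/kg and 3 members at 0.3 mg/kg had p under 0.05 in edgeR. Over all 10101 tested genes 329 and 875 did so. Each of these members had a negative log2 fold change. They were Prim1 (-0.44) at 0.03 mg/kg, and Prim1 (-0.48), Orc6 (-0.48) and Pola1 (-0.58) at 0.3 mg/kg. The median log2 fold change over the 33 tested members was -0.02 at 0.03 mg/kg and 0.01 at 0.3 mg/kg. All these comparisons share the same 4 control livers.

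**Figure D1:**
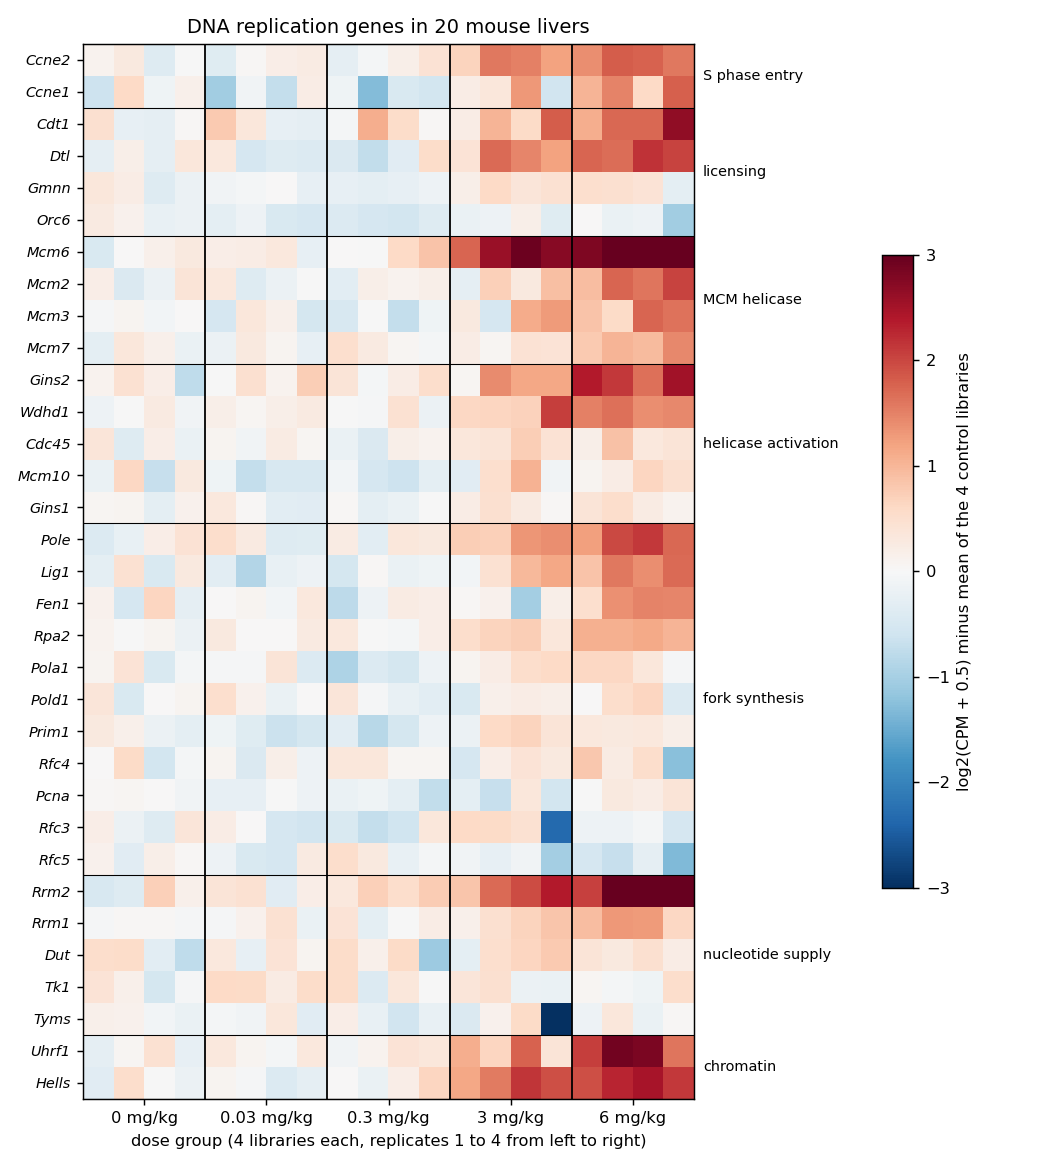
The 33 tested replication genes (rows, by role) in the 20 livers (columns, by dose, 4 each), coloured by log2(CPM + 0.5) minus the mean of the 4 control livers, with colours ending at -3 and 3. Red fills the 6 mg/kg columns for 18 genes that passed the test, is paler at 3 mg/kg, and leaves Orc6, Pcna, Tyms, Tk1 and Gmnn near the control colour; dose_3 replicate 4 stands out blue in Tyms and Rfc3.

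Promoters of members were looked up in the RefSeq table for GRCm38.p6, and 35 of the 41 had an entry. The 250 bases before each start were searched on both strands for the E2F-type letters TTCGCGC and TTGGCGC and TTCCCGC, of which TTGGCGC can overlap the reverse complement of TTCGCGC. At least 1 of them was found for 17 of the 35 members (48.6%), beside 7.68% of 27025 genes in the table. By result at 6 mg/kg, the letters were found for 8 of the 15 members that rose, 3 of the 13 tested members that did not pass, and 6 of the 7 members with too few counts to test. A match is a description of the letters and not a binding site.

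Windows are printed for 4 members with the letters, in capitals, and for 3 without, to show that both kinds occur among genes that rose: Mcm6 (chr1:128359706-128359955, minus strand), Dtl (chr1:191575545-191575794, minus), Uhrf1 (chr17:56303087-56303336, plus, the first of 2 annotated starts), Rrm1 (chr7:102441445-102441694, plus), Rrm2 (chr12:24708004-24708253, plus), Mcm2 (chr6:88898781-88899030, minus) and Orc6 (chr8:85299382-85299631, plus). Mcm6 carries overlapping copies of TTGGCGC and the reverse complement of TTCGCGC at 2 places, with first bases 109, 106, 46 and 43 bases before the start. In Dtl the first bases lie 109 and 7 bases before the start, in Uhrf1 48 and in Rrm1 67. Rrm2, Mcm2 and Orc6 carry none of the 3, and Orc6 was the one of these 3 that did not pass at 6 mg/kg. All run 5′ to 3′.
Mcm6: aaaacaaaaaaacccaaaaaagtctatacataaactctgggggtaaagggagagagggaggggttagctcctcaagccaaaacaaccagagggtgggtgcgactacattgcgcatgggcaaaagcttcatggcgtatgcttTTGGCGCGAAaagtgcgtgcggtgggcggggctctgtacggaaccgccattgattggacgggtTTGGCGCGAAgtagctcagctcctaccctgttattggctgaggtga
Dtl: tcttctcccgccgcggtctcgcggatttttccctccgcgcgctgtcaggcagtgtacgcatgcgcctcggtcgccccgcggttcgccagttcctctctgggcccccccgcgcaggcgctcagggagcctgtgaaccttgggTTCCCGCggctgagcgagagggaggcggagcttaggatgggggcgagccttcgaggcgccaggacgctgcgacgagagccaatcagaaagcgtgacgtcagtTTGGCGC
Uhrf1: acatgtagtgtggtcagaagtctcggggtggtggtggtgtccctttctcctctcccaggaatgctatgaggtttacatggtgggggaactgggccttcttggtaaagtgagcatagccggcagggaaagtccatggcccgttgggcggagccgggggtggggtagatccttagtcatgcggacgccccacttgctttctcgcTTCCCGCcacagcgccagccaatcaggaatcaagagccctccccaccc
Rrm1: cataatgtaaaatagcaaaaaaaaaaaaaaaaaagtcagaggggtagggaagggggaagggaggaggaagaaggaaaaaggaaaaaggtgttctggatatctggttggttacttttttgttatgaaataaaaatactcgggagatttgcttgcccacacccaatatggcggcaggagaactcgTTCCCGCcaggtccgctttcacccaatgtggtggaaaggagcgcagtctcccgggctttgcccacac
Rrm2: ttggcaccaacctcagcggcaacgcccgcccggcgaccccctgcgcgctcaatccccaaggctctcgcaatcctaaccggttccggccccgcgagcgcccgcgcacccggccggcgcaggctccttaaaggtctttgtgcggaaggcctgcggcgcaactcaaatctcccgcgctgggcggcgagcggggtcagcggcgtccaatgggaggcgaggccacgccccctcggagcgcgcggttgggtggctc
Mcm2: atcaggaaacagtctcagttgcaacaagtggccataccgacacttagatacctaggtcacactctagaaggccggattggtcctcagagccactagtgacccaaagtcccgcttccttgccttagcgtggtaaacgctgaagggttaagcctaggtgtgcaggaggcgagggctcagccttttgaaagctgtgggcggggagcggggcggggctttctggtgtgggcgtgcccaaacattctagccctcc
Orc6: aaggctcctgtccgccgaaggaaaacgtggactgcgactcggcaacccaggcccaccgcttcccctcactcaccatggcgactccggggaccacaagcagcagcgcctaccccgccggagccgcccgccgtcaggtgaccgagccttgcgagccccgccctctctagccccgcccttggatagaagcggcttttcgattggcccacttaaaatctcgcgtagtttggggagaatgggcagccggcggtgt

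Cyclins E1 and E2, which with Cdk2 drive cells into S phase, both rose at 6 mg/kg. Ccne2 (chromosome 4, 11191351 to 11204779 in GENCODE M21) was at 9.01, 12.2, 11.8 and 10.3 CPM at 6 mg/kg, against 3.37, 3.94, 2.26 and 3.12 CPM in control livers. The groups did not overlap, and the log2 fold change was 1.78 (SE 0.24, adjusted p = 2.93e-05). Ccne2 was at 5.26, 10.3, 9.88 and 7.92 CPM at 3 mg/kg, also above every control liver (log2 fold change 1.40, SE 0.25, adjusted p = 0.00353). Both low doses overlapped the controls, with 2.33 to 3.8 CPM at 0.03 mg/kg and 2.48 to 4.37 CPM at 0.3 mg/kg. A second tested Ccne2 probe did not pass, at 0.98 at 6 mg/kg (adjusted p = 0.237) and 0.34 at 3 mg/kg (adjusted p = 0.860).

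Ccne1 was at 3.00, 4.39, 2.13 and 5.50 CPM at 6 mg/kg, against 0.624, 2.11, 1.08 and 1.43 CPM in control livers. Its lowest treated liver stood just above its highest control liver (log2 fold change 1.53, SE 0.49, adjusted p = 0.0314), and the call was lost when any 1 of control replicates 1, 3 or 4 or of dose_6 replicates 2 or 4 was left out. Ccne1 was at 1.52, 1.69, 3.75 and 0.668 CPM at 3 mg/kg and did not pass (log2 fold change 0.48, SE 0.52, adjusted p = 0.751). E2f1, an activating E2F factor, gave 6, 9, 6 and 9 counts at 6 mg/kg and 2, 3, 4 and 1 counts in control livers with its stronger probe. The other E2f1 probe gave 5 counts in all at 6 mg/kg and 6 in control, and neither reached the count needed for a test.

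Of the licensing factors, Cdt1 and Dtl rose at 6 mg/kg and Gmnn and Orc6 did not pass. Cdt1 brings the MCM ring to the origin, and Dtl directs its destruction once S phase is under way. Cdt1 was at 2.16, 3.65, 3.67 and 7.40 CPM at 6 mg/kg, against 1.25, 0.563, 0.539 and 0.779 CPM in control livers (log2 fold change 2.42, SE 0.50, adjusted p = 0.00191). Dtl was at 8.04, 7.67, 10.9 and 9.90 CPM at 6 mg/kg, against 1.62, 2.39, 1.62 and 2.73 CPM in control livers (log2 fold change 2.13, SE 0.34, adjusted p = 0.000138). Neither gene overlapped between these groups. Dtl was at 2.90, 7.78, 6.47 and 5.34 CPM at 3 mg/kg and rose (log2 fold change 1.43, SE 0.34, adjusted p = 0.0348), whereas Cdt1 was at 0.968, 2.03, 1.36 and 3.91 CPM, overlapped the controls and did not pass (adjusted p = 0.240).

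Geminin (Gmnn), the inhibitor that binds Cdt1, was at 64.4, 62.6, 60.5 and 36.6 CPM at 6 mg/kg, against 57.7, 52.6, 34.2 and 39.9 CPM in control livers. Of the 4 treated livers 3 lay above all controls and dose_6 replicate 4 lay among them, and the log2 fold change of 0.28 (interval -0.06 to 0.62) did not pass (adjusted p = 0.261). Without dose_6 replicate 4 and dose_3 replicate 4 it was 0.44 and passed. A second Gmnn probe passed with all libraries, at 0.69 (SE 0.18, adjusted p = 0.00913).

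Orc6, a subunit of the origin recognition complex, was at 30.9, 26.7, 27.4 and 14.6 CPM at 6 mg/kg, against 36.6, 33.6, 26.0 and 27.0 CPM in control livers. The groups overlapped and the log2 fold change was -0.31 (interval -0.68 to 0.06, adjusted p = 0.253). At 0.3 mg/kg Orc6 was at 22.9, 21.3, 20.7 and 23.2 CPM, under every control liver, with a log2 fold change of -0.48 that did not pass (adjusted p = 0.544). Orc6 and Pcna were the 2 members under all control livers at 0.3 mg/kg, a pattern seen in 3.76% of all tested genes, and 0 were above all of them (3.17%). At 0.03 mg/kg 0 members lay above and 0 below all controls (1.69% and 1.72%). The loader Cdc6 gave 4, 4, 2 and 10 counts at 6 mg/kg and 0, 1, 1 and 0 counts in control livers, and Orc1 gave 5, 6, 2 and 7 counts at 6 mg/kg and 0, 3, 0 and 1 counts in control livers.

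All 4 tested subunits of the MCM helicase, the motor that unwinds DNA at the fork, rose at 6 mg/kg. Mcm6 (chromosome 1, 128331590 to 128359664) was at 34.0, 49.1, 43.8 and 46.7 CPM at 6 mg/kg, against 3.12, 4.50, 4.96 and 5.58 CPM in control livers. The lowest treated liver was far above the highest control liver, and the fitted level was 9.53-fold higher (log2 fold change 3.25, SE 0.27, adjusted p = 5.78e-08). Mcm6 was at 16.2, 29.4, 37.7 and 32.6 CPM at 3 mg/kg, again with no overlap (log2 fold change 2.67, SE 0.26, adjusted p = 6.27e-06). Mcm6 was at 5.21, 5.27, 5.65 and 3.69 CPM at 0.03 mg/kg and at 4.46, 4.45, 7.04 and 8.40 CPM at 0.3 mg/kg, overlapping the controls, and neither dose passed (adjusted p = 1.0 at 0.03 mg/kg and 0.687 at 0.3 mg/kg). Of the 4 livers at 0.3 mg/kg, the highest was the one from plate row B.

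Mcm7 was at 8.65, 10.4, 9.70 and 13.9 CPM at 6 mg/kg, against 3.87, 6.19, 5.39 and 4.15 CPM in control livers (log2 fold change 1.12, SE 0.21, adjusted p = 0.000786). Mcm2 was at 7.92, 14.5, 13.1 and 17.7 CPM at 6 mg/kg, against 4.62, 2.81, 3.45 and 5.32 CPM in control livers (log2 fold change 1.71, SE 0.28, adjusted p = 0.000233). Mcm3 was at 2.52, 1.95, 5.09 and 4.60 CPM at 6 mg/kg, against 1.12, 1.27, 1.08 and 1.17 CPM in control livers (log2 fold change 1.61, SE 0.44, adjusted p = 0.0126). In these 3 subunits all 4 livers at 6 mg/kg lay above all control livers, whereas their values at 3 mg/kg overlapped the controls and did not pass. Their log2 fold changes at 3 mg/kg were 0.29 for Mcm7 (adjusted p = 0.623), 0.50 for Mcm2 (adjusted p = 0.505) and 0.92 for Mcm3 (adjusted p = 0.419).

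The remaining 2 subunits had few counts. Mcm5 gave 9, 15, 9 and 8 counts at 6 mg/kg and 0, 1, 0 and 0 counts in control livers, and Mcm4 gave 7, 13, 10 and 10 counts at 6 mg/kg and 0, 6, 4 and 2 counts in control livers. Every liver at 6 mg/kg held more counts of both genes than every control liver, although on the CPM scale the groups overlapped for Mcm4. In a fit that kept all probes with any count, 19 of the 41 members were called higher at 6 mg/kg (4.55% of 20511 genes) and Mcm5 was the one added to the 18.

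**Figure D2:**
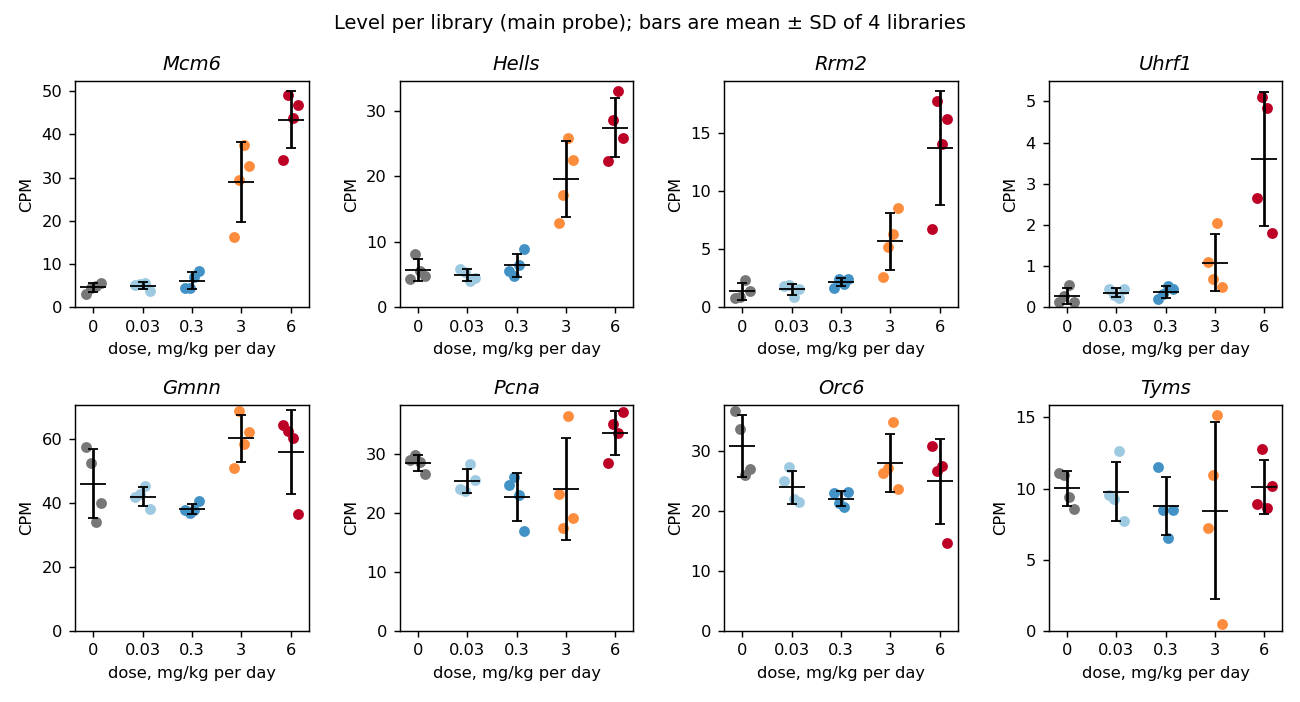
CPM of the main probe in each of the 20 livers (points, by dose in mg/kg per day) with the mean and SD of the 4 livers of a group (bar), for 4 genes that rose and 4 that did not pass at 6 mg/kg. Mcm6, Hells, Rrm2 and Uhrf1 overlap the controls at 0.03 and 0.3 mg/kg and have their highest means at 6 mg/kg, whereas Gmnn, Pcna, Orc6 and Tyms overlap between 6 mg/kg and control.

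Among the factors that turn the helicase on, Gins2 and Wdhd1 rose at 6 mg/kg and Gins1, Cdc45 and Mcm10 did not pass. Gins2, a subunit of the GINS complex, was at 6.12, 5.12, 3.55 and 6.80 CPM at 6 mg/kg, against 0.874, 1.27, 0.970 and 0.260 CPM in control livers (log2 fold change 2.66, SE 0.39, adjusted p = 5.73e-05). Wdhd1, which ties polymerase alpha to the helicase, was at 5.76, 6.46, 5.32 and 5.50 CPM at 6 mg/kg, against 1.5, 1.69, 2.16 and 1.56 CPM in control livers (log2 fold change 1.72, SE 0.32, adjusted p = 0.000712). Both were without overlap. Wdhd1 was at 2.90, 2.93, 3.07 and 8.77 CPM at 3 mg/kg and rose (log2 fold change 1.37, SE 0.32, adjusted p = 0.0331), with dose_3 replicate 4 far above the other livers of that dose. Without that library the calls of Wdhd1 and Pole at 3 mg/kg were lost. A second tested Wdhd1 probe was at 0.20 at 6 mg/kg and did not pass (adjusted p = 0.793).

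Gins1, another GINS subunit, was at 16.9, 18.8, 15.3 and 13.9 CPM at 6 mg/kg, against 13.4, 13.7, 10.5 and 14.2 CPM in control livers. The groups overlapped, and the log2 fold change of 0.33 had an interval of -0.01 to 0.67 (adjusted p = 0.177). A second Gins1 probe was at -0.17 (adjusted p = 0.800), so the probes of Gins1 differed in sign. The interval of the main Gins1 probe lay under the value of Gins2, which codes for another part of the same complex; the difference between the genes was not tested. Cdc45 was at 1.68, 3.05, 1.89 and 2.00 CPM at 6 mg/kg, against 2.00, 0.985, 1.73 and 1.17 CPM in control livers (log2 fold change 0.53, SE 0.29, adjusted p = 0.189). Its second tested probe, with fewer counts, rose (log2 fold change 2.52, SE 0.74, adjusted p = 0.0194), and with all Cdc45 probes summed the gene passed at 1.46.

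Mcm10, which joins the active helicase, was at 0.720, 0.853, 1.30 and 1.10 CPM at 6 mg/kg, against 0.499, 1.27, 0.216 and 0.909 CPM in control livers, with overlap and a wide interval of -0.47 to 1.47 around 0.50 (adjusted p = 0.494). The third GINS subunit measured, Gins3, gave 5, 3, 6 and 3 counts at 6 mg/kg and 2, 0, 4 and 0 counts in control livers.

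At the fork itself, 4 of 11 genes rose at 6 mg/kg: Pole, the leading-strand polymerase, Lig1 and Fen1, which seal and trim Okazaki fragments, and Rpa2, a subunit of the protein that coats single-stranded DNA. Rpa2 was at 28.7, 29.1, 30.3 and 27.8 CPM at 6 mg/kg, against 14.7, 13.4, 14.3 and 11.9 CPM in control livers (log2 fold change 1.09, SE 0.14, adjusted p = 1.37e-05). The 4 treated livers were close together and 2.13-fold higher on average. Rpa2 also rose at 3 mg/kg, where livers were at 19.6, 21.8, 22.8 and 17.3 CPM (log2 fold change 0.58, SE 0.14, adjusted p = 0.0372). The other tested Rpa2 probes did not pass at 3 mg/kg, at 0.84 (adjusted p = 0.0832) and -0.10 (adjusted p = 0.925). Pole was at 11.3, 19.1, 21.3 and 16.0 CPM at 6 mg/kg, against 3.24, 3.8, 5.28 and 6.23 CPM in control livers (log2 fold change 1.86, SE 0.28, adjusted p = 8.42e-05), and at 3 mg/kg at 7.88, 7.78, 12.1 and 12.7 CPM (log2 fold change 1.12, SE 0.28, adjusted p = 0.0491).

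Lig1 was at 3.12, 5.48, 4.73 and 6.00 CPM at 6 mg/kg, against 1.12, 2.25, 0.970 and 1.95 CPM in control livers (log2 fold change 1.63, SE 0.34, adjusted p = 0.00196). Fen1 was at 1.92, 3.90, 4.26 and 4.2 CPM at 6 mg/kg, against 1.37, 0.704, 2.16 and 0.909 CPM in control livers (log2 fold change 1.44, SE 0.39, adjusted p = 0.0118). Fen1 was the one of the 18 members whose groups overlapped, through dose_6 replicate 1 and control replicate 3. Fen1 at 3 mg/kg had a log2 fold change of -0.20 (adjusted p = 0.889) and Lig1 of 0.84 (adjusted p = 0.339).

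Pcna, the sliding clamp that holds polymerases on DNA, did not pass at any dose. It was at 28.5, 35.1, 33.5 and 37.1 CPM at 6 mg/kg, against 29.0, 29.8, 28.6 and 26.6 CPM in control livers. Of the 4 treated livers 3 were above all controls and 1 was within their range, giving a log2 fold change of 0.24 with an interval of -0.13 to 0.60 (adjusted p = 0.385). Pcna was at 23.2, 17.4, 36.5 and 19.2 CPM at 3 mg/kg and spread to both sides of the controls (log2 fold change -0.25, SE 0.19, adjusted p = 0.622). At 0.3 mg/kg it was at 24.7, 26.1, 23.0 and 16.9 CPM, under every control liver (log2 fold change -0.33, SE 0.19, adjusted p = 0.653).

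The clamp loader genes Rfc3, Rfc4 and Rfc5 did not pass with their main probes. Rfc3 was at 9.97, 9.99, 10.6 and 7.70 CPM at 6 mg/kg, against 12.9, 9.71, 8.41 and 14.5 CPM in control livers (log2 fold change -0.25, SE 0.43, adjusted p = 0.709). Its second tested probe gave the other sign and passed (log2 fold change 1.16, SE 0.26, adjusted p = 0.00323), so no direction is given for Rfc3. Rfc4 was at 4.92, 3.17, 3.90 and 0.800 CPM at 6 mg/kg, against 2.62, 4.08, 1.62 and 2.47 CPM in control livers, and its log2 fold change of 0.25 (adjusted p = 0.676) became -0.04 without dose_6 replicate 1. Rfc5 was at 1.44, 1.22, 1.77 and 0.600 CPM at 6 mg/kg, against 2.50, 1.69, 2.59 and 2.34 CPM in control livers, and had the lowest log2 fold change of the 33 members, -0.87 (interval -1.56 to -0.18, adjusted p = 0.0841).

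The primase subunit Prim1 was at 13.8, 13.5, 13.8 and 12.4 CPM at 6 mg/kg, against 13.6, 12.4, 9.70 and 8.96 CPM in control livers (log2 fold change 0.26, SE 0.20, adjusted p = 0.366). Its second tested probe rose (log2 fold change 1.40, SE 0.35, adjusted p = 0.00800). Pola1, the catalytic subunit of polymerase alpha, was at 6.72, 6.70, 5.44 and 4.10 CPM at 6 mg/kg, against 4.49, 5.77, 2.91 and 4.02 CPM in control livers (log2 fold change 0.42, SE 0.25, adjusted p = 0.246). Pold1, that of polymerase delta, was at 0.961, 1.58, 1.77 and 0.600 CPM at 6 mg/kg, against 1.37, 0.563, 0.970 and 1.04 CPM in control livers (log2 fold change 0.29, SE 0.39, adjusted p = 0.625). Treated and control livers overlapped in all 3 main probes.

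Nucleotide supply was split between genes. Rrm2 and Rrm1, the subunits of the reductase that makes deoxyribonucleotides, both rose, whereas Tyms and Tk1, which make thymidylate, and Dut, which clears dUTP, did not pass. Rrm2 was at 6.72, 17.8, 14.1 and 16.2 CPM at 6 mg/kg, against 0.749, 0.844, 2.37 and 1.43 CPM in control livers, with a fitted level 9.86-fold higher and no overlap (log2 fold change 3.30, SE 0.39, adjusted p = 4.95e-06). At 3 mg/kg it was at 2.63, 5.18, 6.30 and 8.58 CPM, also without overlap (log2 fold change 2.04, SE 0.40, adjusted p = 0.00714). Rrm1 was at 32.3, 41.8, 41.3 and 25.9 CPM at 6 mg/kg, against 16.3, 17.2, 17.1 and 16.4 CPM in control livers (log2 fold change 1.07, SE 0.19, adjusted p = 0.000536), and its 4 control livers were close together. Rrm1 was at 18.8, 23.7, 26.9 and 30.0 CPM at 3 mg/kg, above all controls but short of the threshold (log2 fold change 0.57, SE 0.19, adjusted p = 0.188).

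Tyms was at 8.89, 12.8, 8.64 and 10.2 CPM at 6 mg/kg, against 11.1, 11, 9.38 and 8.57 CPM in control livers, and the log2 fold change was 0.02 with an interval of -0.91 to 0.94 (adjusted p = 0.984). In dose_3 replicate 4 Tyms had 5 counts and 0.477 CPM while the other livers at 3 mg/kg held 7.19 to 15.2 CPM. The SE of this change was 0.47 with all libraries and 0.23 without dose_3 replicate 4 and dose_6 replicate 4. Tk1 was at 8.04, 7.43, 6.98 and 11.3 CPM at 6 mg/kg, against 10.5, 8.73, 5.18 and 7.53 CPM in control livers (log2 fold change 0.09, SE 0.25, adjusted p = 0.827). Dut was at 1.20, 1.10, 1.30 and 1.0 CPM at 6 mg/kg, against 1.37, 1.41, 0.539 and 0.260 CPM in control livers (log2 fold change 0.37, SE 0.52, adjusted p = 0.640). The treated livers of all 3 genes fell within or beside the range of the controls.

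The chromatin factors Hells, a remodeller of the SNF2 family, and Uhrf1, which brings the maintenance DNA methyltransferase to newly copied DNA, rose at 6 mg/kg. Hells was at 22.3, 28.6, 33.1 and 25.8 CPM at 6 mg/kg, against 4.24, 8.16, 5.50 and 4.80 CPM in control livers (log2 fold change 2.28, SE 0.25, adjusted p = 1.81e-06). At 3 mg/kg it was at 12.9, 17.1, 25.9 and 22.5 CPM, and both doses were above all controls (log2 fold change 1.79, SE 0.25, adjusted p = 0.000329). Uhrf1 was at 2.64, 5.12, 4.85 and 1.80 CPM at 6 mg/kg, against 0.125, 0.281, 0.539 and 0.130 CPM in control livers, the largest log2 fold change of the 33 members (log2 fold change 3.62, SE 0.52, adjusted p = 4.61e-05).

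The Uhrf1 control values were 1, 2, 5 and 1 counts, under the floor of 3 counts in 3 of the 4 livers, so its fold change rests on few counts. Uhrf1 was at 1.11, 0.676, 2.04 and 0.477 CPM at 3 mg/kg, overlapped the controls and did not pass (log2 fold change 1.81, SE 0.59, adjusted p = 0.159). The subunits of chromatin assembly factor 1 had too few counts: Chaf1a gave 6, 5, 7 and 7 counts at 6 mg/kg and 1, 0, 3 and 2 counts in control livers, and Chaf1b gave 6, 3, 3 and 4 counts at 6 mg/kg and 4, 1, 3 and 3 counts in control livers. Over the 8 members with too few counts, the main probes summed to 52 counts in control livers, 74 at 0.03 mg/kg, 58 at 0.3 mg/kg, 89 at 3 mg/kg and 209 at 6 mg/kg. The 4 libraries behind each sum held 33834897, 38280741, 38221403, 33024539 and 33351551 counts in the same order.

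**Figure D3:**
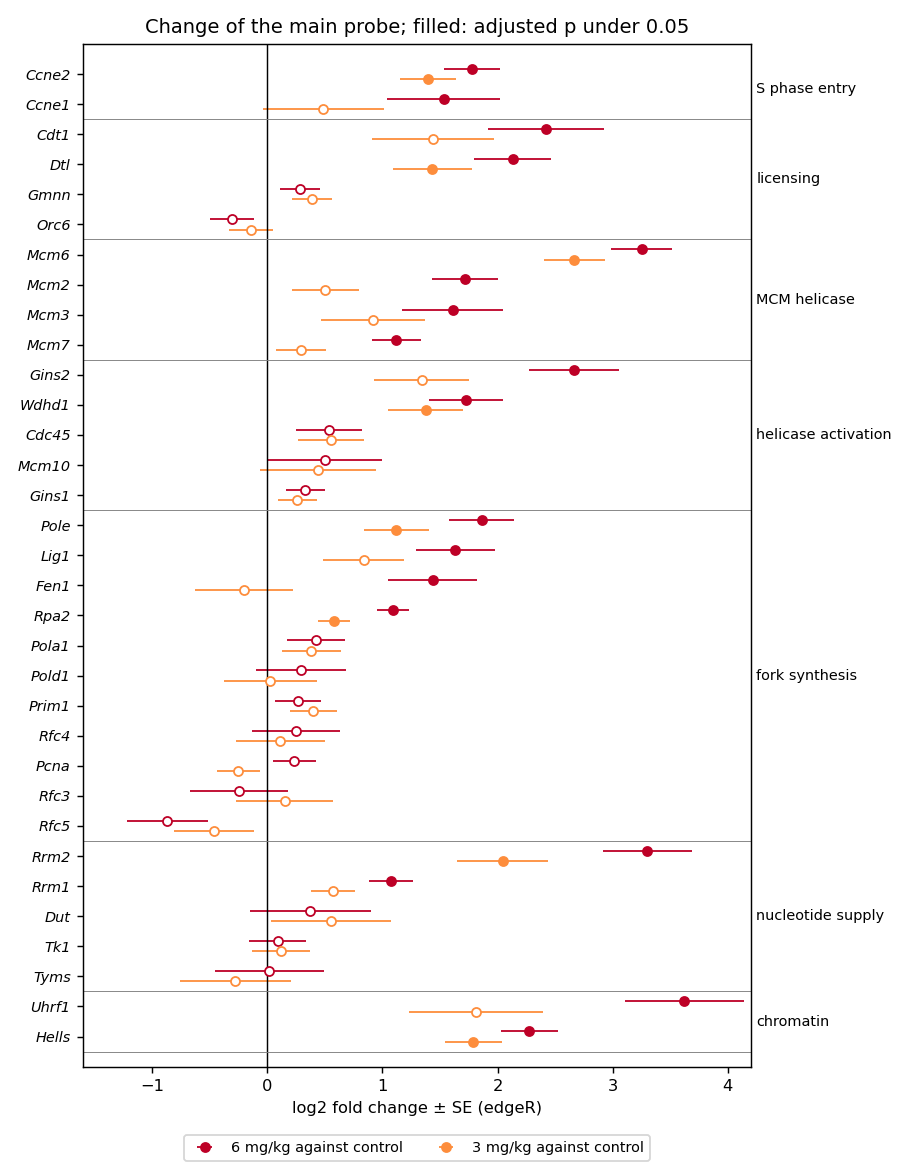
Log2 fold change of each tested member against control (edgeR, bar ± SE) at 6 mg/kg (dark red, upper of each pair) and 3 mg/kg (orange), filled where the adjusted p is under 0.05. At 6 mg/kg 18 of 33 points are filled and at 3 mg/kg 8, all to the right of 0.

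The filter on low counts uses all 20 libraries, and a gene can pass it through the dosed livers alone. Of the 33 tested members, 30 also passed it in the 12 control, 0.03 and 0.3 mg/kg libraries, and 17 of those 30 rose at 6 mg/kg. Mcm10, Pold1 and Uhrf1 passed only with the 3 and 6 mg/kg libraries, and of these Uhrf1 rose.

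The comparison of 6 mg/kg with 3 mg/kg asks whether the higher dose added to the lower one, with both groups in plate row B. Here 7 of the 33 members were higher at 6 mg/kg and 0 were lower, where 3.77% of all tested genes were called higher and 3.19% lower. They were Uhrf1 (1.81), Fen1 (1.64), Gins2 (1.32), Rrm2 (1.26), Mcm2 (1.21), Mcm7 (0.83) and Rpa2 (0.51), as log2 fold changes. Mcm7 was at 10.7 ± 2.28 CPM at 6 mg/kg and 5.99 ± 0.758 CPM at 3 mg/kg (SD, n = 4 each; SE of the log2 fold change 0.21, adjusted p = 0.0204). Rpa2 was at 29.0 ± 1.03 CPM at 6 mg/kg and 20.4 ± 2.46 CPM at 3 mg/kg (SD, n = 4 each; SE 0.14, adjusted p = 0.0286). In 5 of the 33 members all livers at 6 mg/kg lay above all at 3 mg/kg (5.74% of all tested genes) and in 0 below (5.81%), and Mcm7 and Rpa2 were among the 5.

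Mcm6 and Hells, which rose at both doses against control, gave log2 differences of 0.58 (SE 0.24, adjusted p = 0.136) and 0.49 (SE 0.23, adjusted p = 0.202) between 6 and 3 mg/kg and did not pass. The count of 7 depended on single livers. It was 1 (Uhrf1) without dose_3 replicate 1, the liver with the lowest replication values of its dose, where 1.43% of all tested genes were called higher. It was 3 without dose_3 replicate 2 or dose_6 replicate 2, 4 without dose_6 replicate 3 or replicate 4, and 13 without dose_3 replicate 4, of which 12 were higher and Rfc3 was lower. Without that last library the calls over the whole panel grew as well, to 1054 higher (10.4% of the 10101 tested genes) and 1172 lower, against 381 higher and 322 lower with all libraries. In a fit on the 8 libraries of the 2 doses alone the count of members was 0, with a median of 0.45 over 31 members. That fit called 8 of 9397 genes (0.0851%) higher and 1 lower. Without dose_6 replicate 2, 2.19% of all tested genes were called higher.

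The 33 members were also summed up per liver, as the median of their log2 values over the control mean. This median was 0.10, 0.11, -0.09 and -0.04 in the control livers, was 0.09, 0.01, -0.07 and -0.17 at 0.03 mg/kg, was -0.06, -0.13, -0.01 and -0.00 at 0.3 mg/kg, and was 0.22, 0.58, 0.71 and 0.50 at 3 mg/kg and 0.88, 1.07, 0.98 and 1.03 at 6 mg/kg. Of the 3 mg/kg livers, dose_3 replicate 1 was nearest the controls. The 6 mg/kg livers were close to each other and above all others, the 3 mg/kg livers lay between, and the low doses mixed with the controls.

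Genes of mitosis, the phase that follows replication, were also highest at 6 mg/kg. All 10 of a set of mitosis genes, chosen with earlier results of these data known, rose at 6 mg/kg. At 3 mg/kg 6 of 10 rose, and 7 of 10 were higher at 6 than at 3 mg/kg. Over all tested genes the shares called higher were 10.9%, 1.13% and 3.77% in the same order. The median of the mitosis genes per liver was 3.04 to 3.33 at 6 mg/kg and 1.30 to 2.25 at 3 mg/kg on the same log2 scale. By this median dose_3 replicate 1 was again the lowest of its dose. Examples are Mki67, the proliferation antigen Ki-67 (3.08 at 6 mg/kg), the topoisomerase Top2a (3.21) and the mitotic kinase Cdk1 (2.89). The median log2 fold change against control over the 10 genes was 3.55 at 6 mg/kg and 2.10 at 3 mg/kg. At 0.03 mg/kg that median was -0.77 with 0 of 10 positive and 0 passing. The medians per liver there were -0.74, -0.21, -0.27 and -0.72, against -0.03, 0.27, -0.16 and -0.18 in control livers, so they lay under all controls, whereas the medians of the replication genes overlapped the controls at this dose. At 0.3 mg/kg they were 0.13, -0.83, -0.14 and 0.49, on both sides of the controls.

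**Figure D4:**
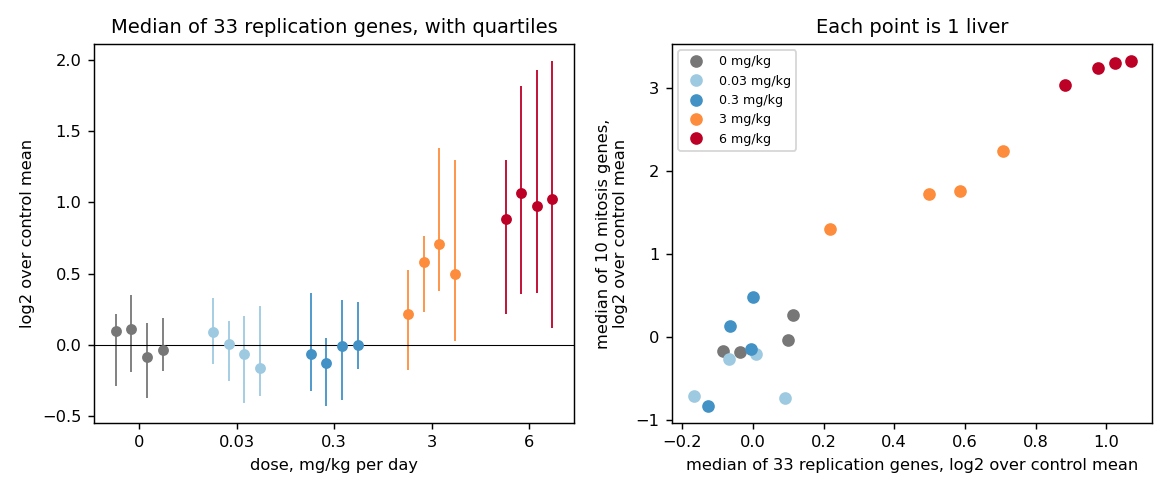
Left, the median and quartiles over the 33 tested replication genes of log2 over the control mean, 1 point per liver, by dose in mg/kg per day. Right, that median against the same for 10 mitosis genes; the 4 livers at 6 mg/kg sit at 3.04 to 3.33 for mitosis genes and 0.88 to 1.07 for replication genes, and dose_3 replicate 1 is the lowest of the orange points on both axes.

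Probes of 1 gene gave a check on the member values. For 6 mg/kg against control there were 23 further tested probes of 19 members, and 21 had the sign of the main probe. The other 2 were those of Rfc3 and Gins1. For the 17 probes whose main probe had passed, all 17 had the same sign and 13 passed too. For 3 mg/kg against control, 9 of 11 such probes had the same sign and 2 passed. Those of the other sign were the second Wdhd1 probe (-0.46, main probe 1.37) and an Rpa2 probe (-0.10, main probe 0.58). For 6 against 3 mg/kg, 7 of 7 had the same sign and 1 passed. Of all 56 member probes 35 were called higher and 0 lower, beside 11.6% and 8.73% of all tested probes. Counting a gene as soon as any of its probes passed, an alternative chosen after seeing the data, gave 22 of 33 members (13.4% of all tested genes), adding Gmnn, Cdc45, Rfc3 and Prim1.

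Among the members, those with the most counts passed less often than the others. Ranked by mean CPM in the 8 livers at 0.03 and 0.3 mg/kg, which are outside the comparison, 2 of the first 10 members rose at 6 mg/kg (Rrm1 and Rpa2), against 16 of the other 23. Over all tested genes of any level 10.9% were called higher at 6 mg/kg, and their share by level was not computed. Among the members the median log2 fold change was 0.25 for the first 10 and 1.63 for the other 23. Spearman's rho between this level and the log2 fold change was -0.45 over the 33 members and -0.16 over all 10101 tested genes. Points share libraries, the split at 10 was chosen after seeing the values, and probe counts also reflect how well a probe ligates. The count filter can also admit a gene of low level because it rose at the higher doses, which favours a negative rho. Uhrf1, Mcm10 and Pold1 passed the filter only through those doses, with log2 fold changes of 3.62, 0.50 and 0.29. The part of the filter in this rho and in the split was not tested. Between probes of 1 gene both cases occurred. The probe with fewer counts was the one that passed for Gmnn, Cdc45, Prim1 and Rfc3, whereas for Wdhd1, Ccne2 and 1 probe each of Rpa2 and Rrm1 the main probe passed and the probe with fewer counts did not.

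**Figure D5:**
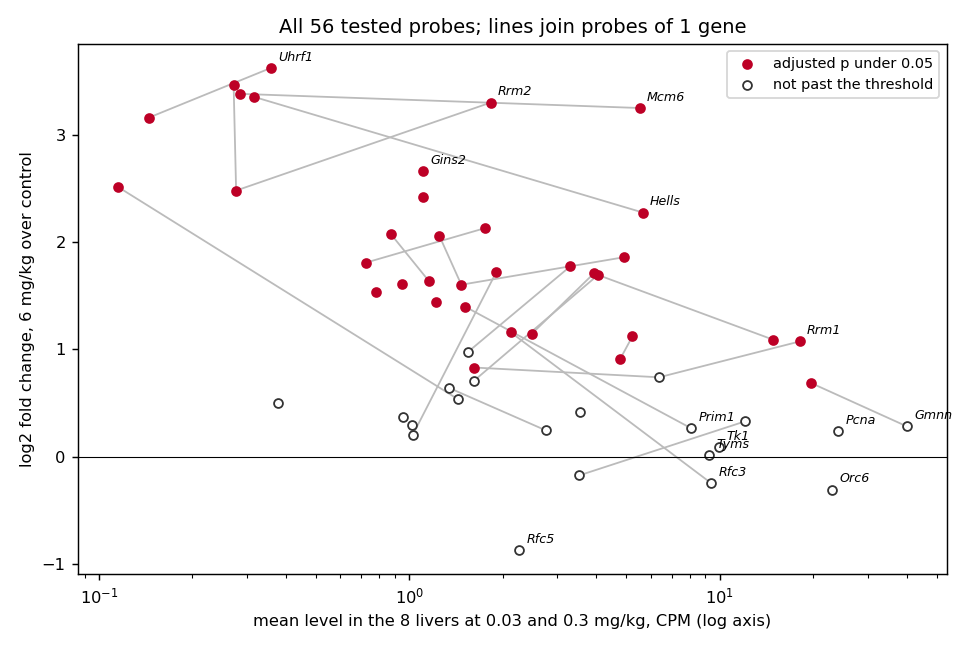
Log2 fold change at 6 mg/kg over control against mean CPM in the 8 livers at 0.03 and 0.3 mg/kg (log axis) for the 56 tested probes of the members, with lines joining probes of 1 gene and filled points past an adjusted p of 0.05. Of the main probes at the right, Gmnn, Pcna, Orc6, Gins1, Tk1 and Tyms lie near 0, and Rrm1 and Rpa2 (not named) lie at 1.07 and 1.09. The main probes of Uhrf1, Rrm2, Mcm6 and Gins2 lie above 2.6.

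Other genes of the pathway were taken from lists drawn up apart from the 41, also with earlier results of these data known. Of 36 further replication factors tested, 6 rose and 1 fell at 6 mg/kg, and 22 were positive, where 10.9% of all tested genes were called higher and 9.63% lower. The checkpoint adaptor Clspn (3.03, SE 0.48), the clamp-loading factor Dscc1 (2.55, SE 0.57) and the fork protection factor Timeless (1.24, SE 0.29) had the smallest p, and Rnaseh2c, a subunit of ribonuclease H2, fell by 0.54 on the log2 scale. At 3 mg/kg 0 of the 36 passed in edgeR, with 6 at an unadjusted p under 0.05, beside 1212 of all 10101 tested genes. The median over these 36 at 6 mg/kg was 0.25.

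Of 12 further nucleotide enzymes 2 rose and 1 fell, beside the same shares over all genes. Ctps, the CTP synthase, and Cad, which starts pyrimidine synthesis, rose at 6 mg/kg (2.11 and 1.27) and Shmt1, which supplies carbon units for thymidylate, fell by 0.59 on the log2 scale. Ctps was at 12.2 to 13.6 CPM at 6 mg/kg and 2.12 to 3.51 CPM in control livers.

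Of 23 tested regulators of the cell cycle, 6 rose and 2 fell at 6 mg/kg, and 15 were positive; the count that fell is near the share of 9.63% over all tested genes, and 10.9% of those were called higher. Cyclin A2 (Ccna2), the S phase and G2 cyclin, was at 9.49 to 18.0 CPM at 6 mg/kg and 0.130 to 1.27 CPM in control livers (log2 fold change 4.30, SE 0.56), and was the 1 regulator of the 23 that also passed at 3 mg/kg. Cdkn1a, the p21 inhibitor of cyclin-dependent kinases, rose as well (2.78, SE 0.58), as did Tfdp1, the DNA-binding partner of E2F factors (0.81, SE 0.15). The repressive factor E2f5 fell by 0.93 and Tfdp2, another partner of E2F factors, fell by 0.85 on the log2 scale. Cyclin D1 (Ccnd1) had too few counts for a test, with a mean of 1.5 CPM at 6 mg/kg and 0.354 CPM in control livers.

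Some markers of liver cell types also passed at 6 mg/kg, and their part in the replication results was not tested. Over all tested genes 10.9% were called higher and 9.63% lower. Of 9 hepatocyte markers 3 were lower (Alb, Fgb and Serpina1a) and 0 higher. Of 10 tested Kupffer cell markers 2 were lower and 0 higher, with sums over 12 markers of 77.5 to 128 CPM at 6 mg/kg and 119.6 to 175 CPM in control livers. Of 11 tested stellate cell markers 6 were lower and 1 (Col1a1) higher, with sums of 171 to 227 CPM at 6 mg/kg and 314 to 358 CPM in control livers. Of 11 tested endothelial markers 1 was higher, near the share over all tested genes. Their sums were 251 to 337 CPM at 6 mg/kg and 252 to 307 CPM in control livers.

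Among 6 tested lymphocyte and neutrophil markers S100a8 was higher and Nkg7 lower, beside the same shares over all tested genes. The sums over 15 markers were 41.7 to 66.9 CPM at 6 mg/kg and 14.4 to 28.7 CPM in control livers. These sums did not overlap, and S100a8 alone averaged 46.9 CPM at 6 mg/kg and 1.53 CPM in control livers. The other 5 tested markers of this list had negative log2 fold changes, and the median over the 6 was -0.61. Of 2 tested cholangiocyte markers 0 passed, with sums of 27.7 to 36.6 CPM at 6 mg/kg and 29.0 to 35.7 CPM in control livers. Of 3 tested erythroid markers Alas2 was higher, with sums of 24.4 to 44.2 CPM at 6 mg/kg and 24.6 to 55.0 CPM in control livers. At 0 in all 4 livers were Marco, Epcam, Ms4a1, Elane, Car2 and Epb42 at 6 mg/kg, and Cd8a, Mpo, Elane and Epb42 in control livers.

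Plate row and dose cannot be told apart outside the 0.3 mg/kg group. A fit with row as a term, whose effect was estimated from that group alone, called 1.60% of all tested genes higher at 6 mg/kg, and left the 2 members named above at 6 mg/kg and 0 at 3 mg/kg. In that fit all 18 members called without the term kept a positive log2 fold change at 6 mg/kg. The median over the 33 was 0.94 at 6 mg/kg and 0.41 at 3 mg/kg. For 6 against 3 mg/kg the fit with row called the same 7 members as the fit without it, where 3.93% of all tested genes were called higher. The 0.3 mg/kg liver from row B lay above the 3 from row A in 11 of the 33 members, within their range in 17 and under it in 5, beside 34.9% of all tested genes above. For Mcm6 it was at 8.40 CPM, beside 4.45 to 7.04 CPM in row A, and for Hells at 8.85 CPM, beside 4.76 to 6.37 CPM. Both values were under every liver at 3 mg/kg, the lowest of which was at 16.2 CPM for Mcm6 and 12.9 CPM for Hells. For other members, among them Dtl, Gins2 and Prim1, the row B liver exceeded the lowest 3 mg/kg liver, at 3.25, 1.34 and 9.86 CPM. Their lowest livers at 3 mg/kg were at 2.90, 0.830 and 9.68 CPM. All these row B values come from the same library.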

How the data were processed

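The authors deposited raw counts per probe, 1 column for each of the 20 livers, and per the submitters' processing notes Bowtie (its version is not given in the sources used here) and the build GRCm38.p5 were used. No values normalized by the authors were used. The members and all gene lists were chosen with earlier results of these data known. Probes were kept by filterByExpr in edgeR 4.0.16 (R 4.3.3), scaled by TMM, and tested by quasi-likelihood in a model of all 20 libraries with 1 mean per group. Adjusted p-values in the text are Benjamini-Hochberg values of this edgeR test over 14122 probes, with 0.05 as the threshold, and intervals are the log2 fold change ± 1.96 SE. The dose comparisons share the 4 control livers, so they are not independent of each other.

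Values in every liver are given for the 2 members of each role with the highest mean CPM, for the S phase regulators and for every tested member that did not pass at 6 mg/kg, by rule; the other members that rose and those with too few counts were added after their values were seen. From each other list up to 3 genes per direction with the smallest p are named, and Cdkn1a, Ccnd1, Mki67, Top2a, Ccna2 and Cdk1 in any case; marker genes were named after their values were seen. Alternatives were other scalings and filters, DESeq2 1.42.0, limma-voom 3.58.1, summed probes, the 8 libraries of a comparison alone, plate row, and libraries left out. The functions were tested on simulated counts. Replicate numbers follow accession order and pair no samples. Each library was taken as a separate animal, although the titles give no animal number. The heat map uses a pseudocount of 0.5 CPM, and values per library over the control mean are log2 CPM with a prior count of 2. Gene positions are from GENCODE M21 (GRCm38), and promoters from RefSeq (GRCm38.p6); that of Orc6 was added to those printed after its values were seen.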

Additional observations from a re-analysis of the deposited data

Results flagged for a closer look

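Among 125 groups of 4 livers examined (25 members at 5 dose levels), 5 had 1 liver set apart from the other 3 by more than Dixon's 95% critical value for 4 values; chance sets apart about 1 group in 20. Gmnn in dose_6 replicate 4 was at 36.6 CPM, while the other livers of that dose were at 60.5 to 64.4 CPM. Wdhd1 in dose_3 replicate 4 was at 8.77 CPM, beside 2.90 to 3.07 CPM. Rfc3 in dose_3 replicate 4 was at 1.81 CPM, beside 15.3 to 17 CPM. Pold1 in dose_3 replicate 1 was at 0.553 CPM, beside 1.13 to 1.19 CPM. Tk1 in dose_0.03 replicate 3 was at 9.31 CPM, beside 11.6 to 12.0 CPM. Of the 5 values, 3 are in the libraries dose_3 replicate 4 and dose_6 replicate 4, which stand apart over the whole panel.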

How the results depend on the processing

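The count of 18 members higher at 6 mg/kg was 18 or 19 with other scalings and filters, DESeq2, limma-voom, summed probes, the 8 libraries alone or without the 2 libraries that stand apart, 22 when any probe counted, and 17 to 18 with 1 library left out; with plate row as a term it was 2. The count of 8 at 3 mg/kg was 5 with limma-voom, 2 with the 8 libraries alone, 0 with plate row, and 4 to 9 with 1 library left out; it was 4 without control replicate 1, 2 or 3 (Ccne2, Hells, Mcm6 and Rrm2 each time) and 5 without dose_3 replicate 3. The count of 7 for 6 against 3 mg/kg was 0 with the 8 libraries alone, 7 with plate row as a term and 1 to 13 with 1 library left out. The share of all tested genes called higher moved in these fits too. With the 8 libraries alone it was 0.336% at 3 mg/kg and 0.0851% for 6 against 3 mg/kg. With plate row it was 1.60% at 6 mg/kg, 0.00990% at 3 mg/kg and 3.93% for 6 against 3 mg/kg. At 0.3 and 0.03 mg/kg the count of members was 0 throughout, 0 to 0 with 1 library left out. Total-count scaling moved the median of all genes to 0.15 at 6 mg/kg and 0.16 at 0.3 mg/kg, and called 18, 6 and 8 members at 6 mg/kg, at 3 mg/kg and for 6 against 3 mg/kg. The log2 fold change at 6 mg/kg changed sign for Rfc3 with summed probes (0.0927), for Pola1 (-0.0938) and Prim1 (-0.150) with plate row, and for Tk1 (-0.0864) without the 2 libraries that stand apart. With 1 library left out it ran from -0.106 to 0.272 for Tk1, from -0.0994 to 0.0934 for Tyms and from -0.0376 to 0.564 for Rfc4; the cause of these changes was not tested. No paired analysis was possible because the labels give the replicates no number. Depth limits the 8 members under the count filter and the control values of Uhrf1.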
